A study of Mus musculus with 2 samples.

Results

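Nuclear receptors are transcription factors that bind DNA through zinc fingers and, in most cases, carry a pocket for a small lipophilic ligand such as thyroid hormone, retinoic acid, a bile acid, vitamin D, a fatty acid or a steroid. The orphan receptors have no agreed natural ligand, and their activity follows mainly how much of them is made. In the gut, members of the family are known for control of bile acid return, lipid and sterol handling, calcium and sodium uptake, detoxification and epithelial identity, and many of them bind DNA only together with a retinoid X receptor. The genes described here were 40 nuclear receptor genes given by a list of symbols, with the REV-ERB genes left out. The list uses no measured value as a criterion, although it was drawn up with earlier results of these data known. Array probes were assigned to these genes through the RefSeq accession of each probe.

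The colons came from 8-week-old C57BL/6 mice of 2 genotypes that both carried Villin-Cre, a transgene that makes Cre recombinase under a promoter active in the intestinal epithelium. Control mice carried Villin-Cre alone. EP4 cKO mice were Villin-Cre; EP4flox/flox, so that Cre removes the floxed part of Ptger4, which encodes the prostaglandin E2 receptor EP4, in epithelial cells and not in the stroma, muscle, nerve or immune cells of the same tissue. RNA of whole colon, combined from 3 pools per genotype, was labelled with Cy3 and hybridized to Agilent mouse arrays, 1 array per genotype. With 1 array per genotype there was no replicate check, no test was made, and every difference below describes these arrays rather than the genotypes. In such bulk tissue, fewer cells of a type and less RNA per cell cannot be told apart.

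A signal is the processed intensity of a probe after each array was scaled to a trimmed mean of 2500, in arbitrary units, and it is compared only between arrays for the same probe. A log2 ratio is EP4 cKO over Villin-Cre, so a negative value means a lower signal in EP4 cKO. A gene was read from its probe with the highest mean signal. Where only 1 array showed that probe well above background, the dim side was held at no less than the lowest signal that any probe well above background had on that array (125 for Villin-Cre and 57.8 for EP4 cKO), which gives a bound and not a ratio. The scanner software also attaches an error to each spot, and for the nuclear receptors this amounted to 0.20 to 0.38 on the log2 scale (median 0.20). That error covers the spot and not the mice.

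Of 56593 gene probes, 45.4% were well above background in Villin-Cre and 51.6% in EP4 cKO, no spot was saturated, and the median SD of the log2 ratio among repeated spots of a probe was 0.035. The targeted gene did not check the labels: the brighter probe of Ptger4 gave 6227 under the Villin-Cre label and 5661 under the EP4 cKO label (log2 ratio -0.14), and the dimmer probe gave 393 and 592 (0.59). Where these probes lie relative to the floxed part was not known here, and the tissue holds cells that keep the gene. Villin-Cre and EP4 cKO below therefore name the arrays by their labels. Epithelial markers were well above background for 7 of 7 genes, with summed signals of 1633710 and 2248390 and a median log2 ratio of 0.41, and 1 of them was more than 2-fold higher in EP4 cKO (Krt20, 1.80). Fibroblast markers stood apart. Of 6 such genes 5 had a value, and all 5 were more than 2-fold lower in EP4 cKO (median log2 ratio -4.81, which is a bound, and -2.97 under normexp), their summed signal was 13068 against 290, Dcn (decorin) gave 6006 and 110, and Lum, Col1a1 and Col3a1 were not well above background on the EP4 cKO array. Of the smooth muscle markers, 1 of 5 with a value was lower (Cnn1, -2.73; list median 0.38), and of the enteric neuron and glia markers 1 of 2 (Uchl1, -1.43). Among the 5 immune markers with a value none lay past 2-fold (median 0). Ptprc, the common leukocyte antigen, came nearest with 416 and 813 (0.97), and it was past 2-fold under loess (1.19) and 75th percentile scaling (1.12). Only 1 endothelial marker (Pecam1, -0.18) and 1 adipocyte marker (Lep, -0.04) had a value. The part of these differences in the results below was not tested.

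Of the 40 genes, 39 had a probe and 36 had a value, among 14668 genes with a value and 22909 genes named on the arrays. Rorb had no probe. Rarb, Rxrg and Esrrb had probes, none of which was well above background on any array. The other 36 comprised 33 genes measured on both arrays and 3 known only by a bound (Esr1 and Nr0b2, well above background on the Villin-Cre array only, and Pgr, on the EP4 cKO array only). Transcripts of most of the family were therefore measurable in the colon of both genotypes.

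**Figure D1:**
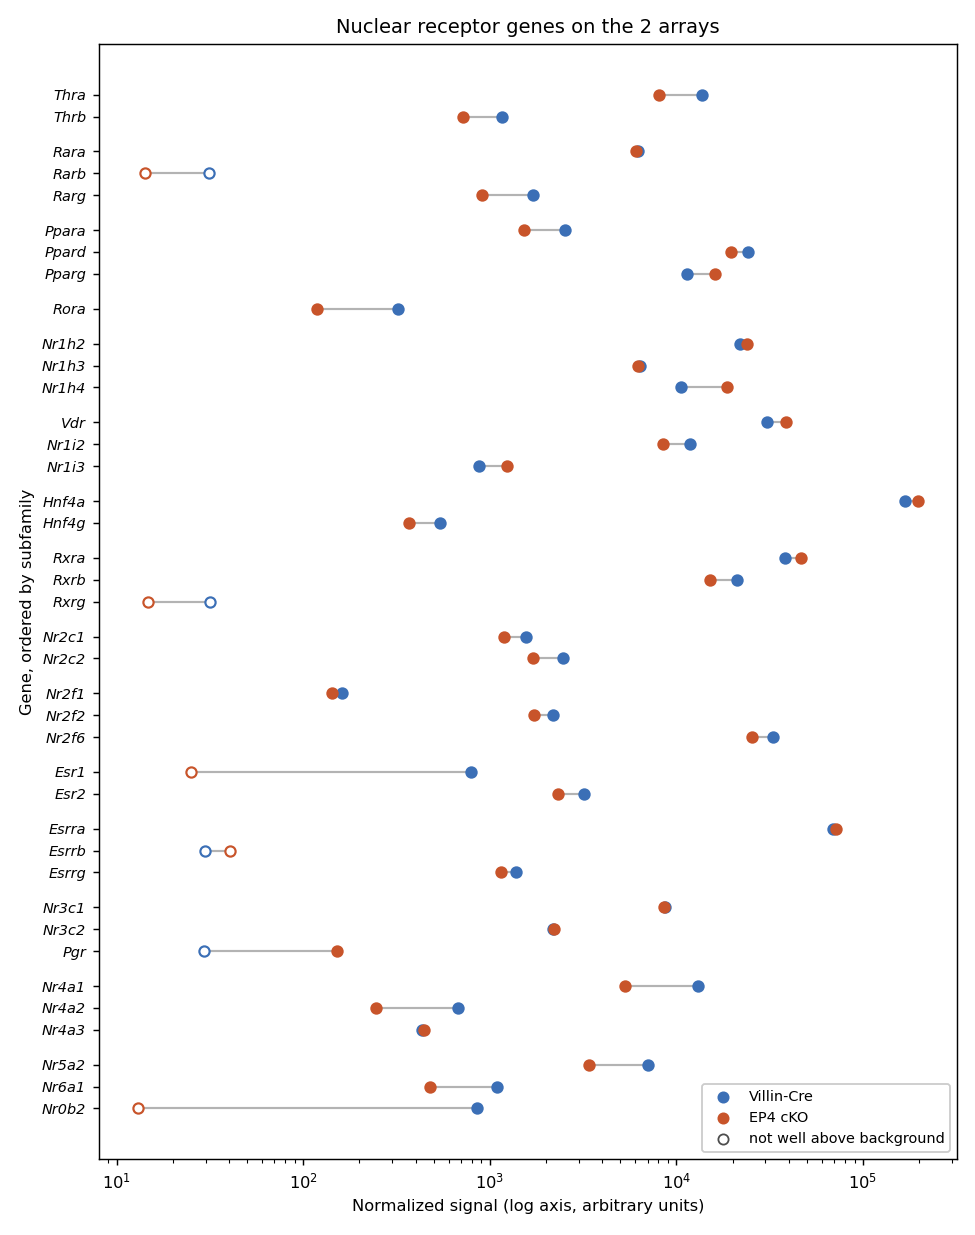
Normalized signal of each nuclear receptor gene with a probe in Villin-Cre (blue) and EP4 cKO (orange), on a log axis in arbitrary units, with genes ordered by subfamily and a grey line joining the values of one gene. Open circles were not well above background. The long lines to the left belong to Esr1 (788 and 25.1) and Nr0b2 (852 and 13.0), and only pairs of points of one gene may be compared.

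Of the nuclear receptors, 7 had signals more than 2-fold lower in EP4 cKO and none had a signal more than 2-fold higher. The 7 were Nr0b2, Esr1, Nr4a2, Rora, Nr4a1, Nr6a1 and Nr5a2. They were 19.4% of the 36 genes with a value, while 7.98% of all genes (1171 of 14668) were more than 2-fold lower and 4.89% (717) more than 2-fold higher. The median log2 ratio of the 36 was -0.35, compared with -0.10 over all genes, and 25 of the 36 lay below 0 (69.4%), compared with 57.5% of all genes. Among genes measured on both arrays the medians were -0.33 for the 33 receptors and -0.15 for 12808 genes. Of these 33, 17 lay beyond 2 software errors from 0 (14 lower and 3 higher in EP4 cKO) and 16 did not.

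The receptors past 2-fold were mostly read from dim probes. Of 10 receptors with a mean signal under 1000, 5 were more than 2-fold lower, and of 5595 genes in that range 15.9% were. Of 26 receptors with a mean signal of 1000 or more, 2 were more than 2-fold lower (7.69%; Nr4a1 and Nr5a2), and of 9073 such genes 3.09% were. The medians were -0.94 and -0.28 for the receptors and -0.10 in both ranges for all genes. After a loess curve of the log2 ratio on mean signal was removed, 5 receptors were more than 2-fold lower and none higher, where 6.03% of all genes were lower. Nr6a1 (-0.99) and Nr5a2 (-0.95) then fell just inside the 2-fold line.

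**Figure D2:**
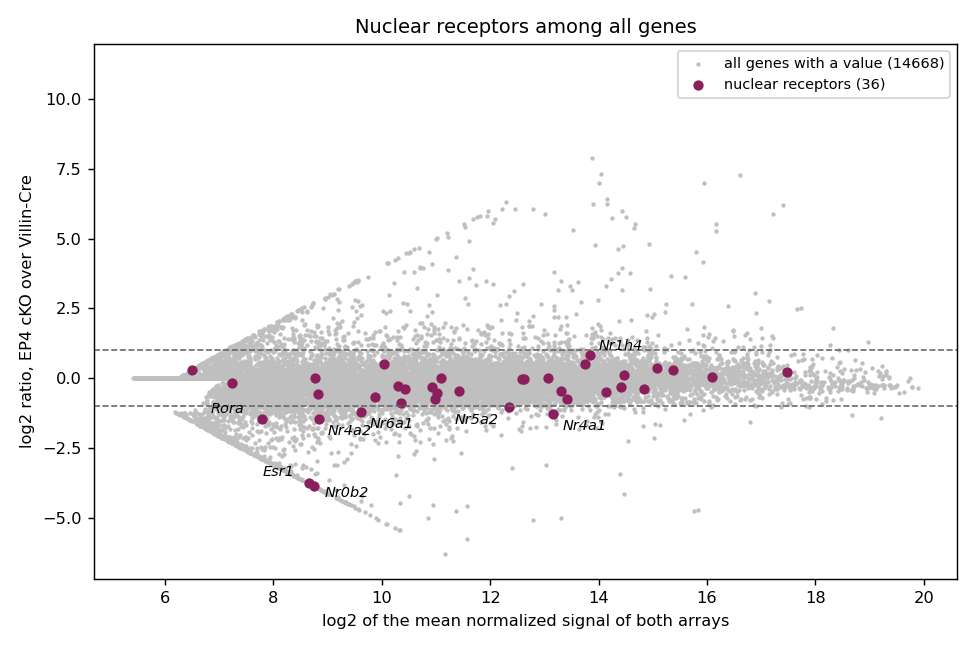
log2 ratio of EP4 cKO over Villin-Cre against the log2 mean normalized signal for the 14668 genes with a value (grey) and the 36 nuclear receptors (purple), with dashed lines at 2-fold. Sloping edges and the row of points at 0 on the left are genes known only by a bound. Nr4a1 and Nr5a2 are the brighter receptors below the lower line, and no receptor lies above the upper line.

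The NR4A receptors are orphan receptors and immediate early genes, which many signals switch on within minutes, among them cyclic AMP, the second messenger that EP4 raises. Each is known to carry cyclic AMP response half-sites near its start. Their upstream sequences are shown for this reason, each the 250 bases before the annotated start in RefSeq (GRCm38.p6), 5′ to 3′ on the strand of the gene, with the half-site TGACG or its reverse complement CGTCA in capitals: Nr4a1 at chr15:101266596-101266845 (+ strand), Nr4a2 at chr2:57124004-57124253 (- strand) and Nr4a3 at chr4:48045055-48045304 (+ strand).
Nr4a1: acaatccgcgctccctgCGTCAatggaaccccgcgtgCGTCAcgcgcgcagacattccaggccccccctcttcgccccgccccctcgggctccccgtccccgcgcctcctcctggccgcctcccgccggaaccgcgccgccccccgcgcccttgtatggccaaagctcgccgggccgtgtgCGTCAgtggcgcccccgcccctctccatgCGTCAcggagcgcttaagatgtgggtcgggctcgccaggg
Nr4a2: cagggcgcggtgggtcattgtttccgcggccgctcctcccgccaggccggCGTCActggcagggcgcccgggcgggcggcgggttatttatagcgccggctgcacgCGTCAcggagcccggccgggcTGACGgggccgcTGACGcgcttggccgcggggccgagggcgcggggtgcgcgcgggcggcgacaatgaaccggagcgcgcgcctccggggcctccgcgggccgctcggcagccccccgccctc
Nr4a3: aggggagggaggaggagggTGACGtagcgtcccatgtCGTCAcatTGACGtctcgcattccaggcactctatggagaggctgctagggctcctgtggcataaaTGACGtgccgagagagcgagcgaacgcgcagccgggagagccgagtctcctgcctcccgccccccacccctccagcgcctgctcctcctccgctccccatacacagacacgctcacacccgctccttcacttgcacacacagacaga
Each of the 3 held 4 half-sites. They began 40, 69, 213 and 233 bases before the start in Nr4a1, 111, 123, 144 and 200 bases in Nr4a2, and 147, 205, 213 and 231 bases in Nr4a3. Of 32851 promoter windows of this length, 17.8% held at least 1 half-site on either strand and 45 (0.137%) held at least 4, a number taken from these 3 windows. The full palindrome TGACGTCA, which counts as 2 overlapping half-sites, was in 1.55% of all windows and in none of the 58 windows of 37 nuclear receptor genes, of which 12 windows (20.7%) held the half-site. Thra, Hnf4g and Nr3c1 had no entry. Such a match describes letters and not a bound site.

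The NR4A genes did not differ alike between the arrays. Nr4a1 gave 12990 in Villin-Cre and 5330 in EP4 cKO, which was 2.44-fold lower (log2 ratio -1.29, software error 0.20). The lower value of Nr4a1 was past 2-fold in all 8 other ways of processing the arrays (-1.13 to -1.29), which held for no other lower receptor with a value in all 8. Only the 4 other scalings (75th percentile, normexp, loess and a trimmed mean over all spots) could move Nr4a1. The remaining settings could not, because it was read from 1 probe measured on both arrays. Nr4a2, a receptor also required in dopamine neurons, gave 673 and 246 (2.74-fold lower, -1.45, software error 0.22) at its brighter probe and 548 and 248 (-1.14) at the other, so both probes were lower, and normexp background correction with quantile normalization reduced the difference to -0.92. Nr4a3 gave 435 and 442, a log2 ratio of 0.02. The 3 genes thus carried the same number of half-sites, and 2 of them were past 2-fold lower and the third was not. Other immediate early genes, listed for comparison, were lower past 2-fold in 1 of 12 with a value and higher in none (median -0.32), a share close to the 7.98% of all genes. That gene was Klf2, with 6436 and 2032 (-1.66). Klf4 (0.49) and Junb (0.27) lay above 0. The rest of the list, named after their values were seen, lay within 2-fold on both sides at the brightest probe. They ran from Jun (-0.94), Btg2 (-0.68), Egr1 (-0.67), Ier2 (-0.46), Fosb (-0.39), Fos (-0.25) and Ier3 (-0.08) to Egr2 (0.23) and Atf3 (0.71). The other probe of Fosb was past 2-fold lower (-1.47), and those of Btg2 (-0.72) and Junb (0.22) were within 2-fold.

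The 3 listed genes of the NR5, NR6 and NR0 subfamilies were each more than 2-fold lower in EP4 cKO. Nr5a2 encodes LRH-1, which in the gut drives crypt renewal genes and local glucocorticoid synthesis. It gave 7025 and 3402 (2.07-fold lower, -1.05, software error 0.20), close to the 2-fold line. It was past that line in 4 of 8 other settings (-1.05 in each). Those settings could not move it, because it was read from 1 probe measured on both arrays. Under the 4 other scalings, which could, Nr5a2 lay within 2-fold (-0.89 to -0.98). Nr6a1, the germ cell nuclear factor, known for silencing pluripotency genes, gave 1092 and 476 (2.30-fold lower, -1.20) and stayed past 2-fold in 6 of 8 (closest to 0 at -0.81). Only the 4 other scalings could move Nr6a1. It stayed past 2-fold with 75th percentile scaling (-1.04) and the trimmed mean over all spots (-1.07). It did not with normexp (-0.81) and loess (-0.99). Nr0b2 encodes SHP, a receptor without a DNA-binding domain that represses other receptors, LRH-1 and HNF4 among them. Its only probe gave 852 in Villin-Cre and 13.0 in EP4 cKO, where it was not well above background, so it was at least 14.7-fold lower, as a log2 ratio -3.88. With the higher floor of the 2 arrays used for both, the bound was -2.76, and normexp gave -2.01. Each of the other 2 genes was measured on both arrays by 1 probe.

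The estrogen receptors had the other large bound. Esr1 encodes estrogen receptor alpha, the main estrogen receptor of the reproductive tract. Its brightest probe gave 788 in Villin-Cre and 25.1 in EP4 cKO, where it was not well above background, so the signal was at least 13.6-fold lower (log2 ratio -3.77, -2.65 with the higher floor used for both arrays, and -1.90 after normexp). Another probe of Esr1 was well above background on both arrays with 263 and 145 (-0.86), which was within 2-fold, and its further 4 probes were not well above background on either. The 2 probes of Esr1 with a value thus shared a direction and not a size. Esr2, estrogen receptor beta, the form known in colonic epithelium, gave 3184 and 2307 (-0.47), and its other probe was well above background on the EP4 cKO array only, with no difference beyond the floor. Pgr, the progesterone receptor and a classic target of estrogen receptor alpha, gave 29.2 in Villin-Cre, not well above background, and 152 in EP4 cKO, at least 1.21-fold higher. That bound was at 0 after loess. The fibroblast markers, whose summed signal went from 13068 to 290, moved in the direction of Esr1, and their part in it was not tested.

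Rora, a receptor that competes with REV-ERBs at clock genes and is needed for innate lymphoid cells, gave 323 and 118 (2.73-fold lower, -1.45, software error 0.31) at its brightest probe, and its other 2 probes were not well above background. Normexp brought it to -0.50, within 2-fold. The COUP-TFs, orphan receptors known from mesenchyme and blood vessels, did not go that far. Nr2f1 gave 161 and 143 (-0.17, software error 0.38), Nr2f2 gave 2172 and 1727 (-0.33), and Nr2f6, known as a repressor in T cells, gave 33111 and 25509 (-0.38). Among the testicular receptors, orphan repressors found in many tissues, Nr2c1 gave 1557 and 1195 (-0.38) and Nr2c2 gave 2476 and 1699 (-0.54), with -0.07 and -0.64 at its other 2 probes. None of these 5 genes reached 2-fold, and each of the 5 lay below 0, except that Nr2f1 was at 0.16 under normexp and 0.09 under loess.

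Thyroid hormone receptors had lower signals in EP4 cKO at every probe, and by how much depended on the probe. Thra encodes the form that drives proliferation in intestinal crypts. Its brightest probe gave 13730 and 8082 (1.70-fold lower, -0.76), and the other 2 probes gave 2125 and 863 (-1.30) and 375 and 119 (-1.66). Thrb, the form that dominates in liver, gave 1155 and 716 (-0.69) at its brightest probe and 370 and 62.1 (-2.58) at the other. By the brightest probe neither gene was past 2-fold, while the mean over probes gave -1.24 for Thra and -1.63 for Thrb. Of 6 genes of thyroid hormone handling and response, 3 had a value, all below 0 and none past 2-fold (median -0.62), among them Dio1, a deiodinase (-0.62), and Hr, the corepressor hairless (-0.46).

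The 40 genes had 70 probes, of which 56 had a value (51 on both arrays). Of the 56, 12 probes from 10 genes were more than 2-fold lower and none was higher, compared with 8.58% and 3.99% of 30126 probes. Their median log2 ratio was -0.38 and that of all probes -0.10. In 14 receptors with at least 2 probes measured on both arrays, the dimmest probe had a lower ratio than the brightest in 9 (64.3%; median difference -0.16), and among 4103 such genes it did in 54.4% (-0.03). Probes of Rxra, Hnf4a, Nr1h2 and Esrrg differed in sign.

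**Figure D3:**
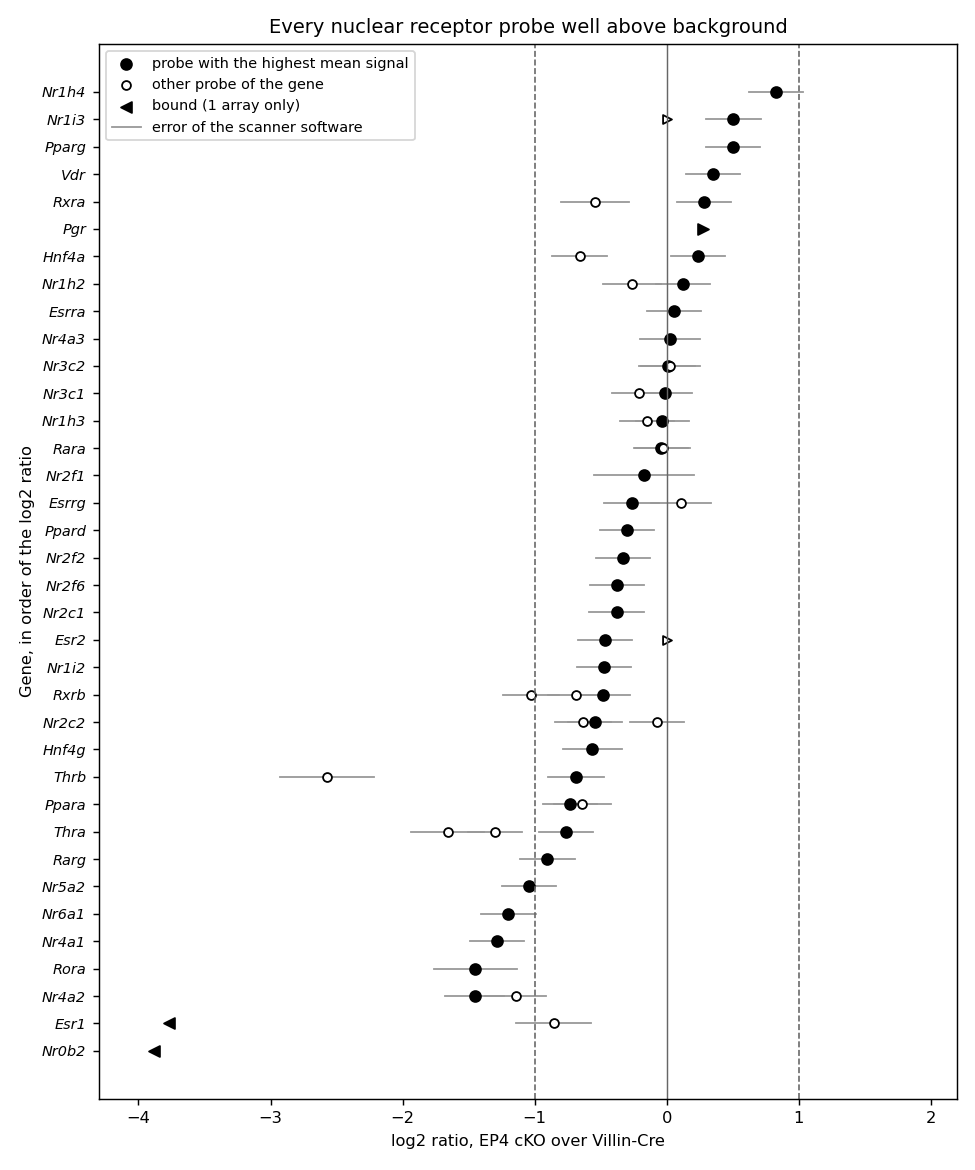
log2 ratio of EP4 cKO over Villin-Cre for each nuclear receptor probe well above background on at least 1 array, by gene, with filled symbols for the probe that represents the gene, open symbols for its other probes, triangles for bounds and grey lines for 1 software error on each side. Dashed lines mark 2-fold. The other probes of Thra (-1.30 and -1.66) and Thrb (-2.58) lie beyond the line while the representing probes (-0.76 and -0.69) do not.

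The retinoic acid receptors bind retinoic acid made from vitamin A. Rarg gave 1701 and 908 (1.87-fold lower, -0.91), the lowest ratio among the receptors within 2-fold as reported, and Rara gave 6227 and 6039 (-0.04, with -0.03 at the other probe). The signals of their heterodimer partners depended on the probe. Rxra, the main retinoid X receptor of epithelia, gave 38101 and 46411 (0.28) at its brightest probe and 347 and 238 (-0.54) at the other, and Rxrb gave 21113 and 15105 (-0.48), with -1.03 and -0.69 at its other 2 probes. The mean over probes was -0.13 for Rxra and -0.73 for Rxrb. The genes of retinoid handling were more than 2-fold higher in 3 of 10 with a value (16 listed; median 0.19) and lower in 1. Rbp4, the retinol carrier of plasma, gave 1753 and 6225 (1.83), and Rdh10, which oxidizes retinol towards retinoic acid, was at 1.30. Dhrs3, which turns retinal back into retinol, gave 23736 and 8936 (-1.41).

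PPARs sense fatty acids, and the members of this group went in different directions. Ppara, which drives fatty acid oxidation and ketogenesis, gave 2526 and 1523 (-0.73, and -0.64 at its other probe). Ppard, the most widely made form, gave 24108 and 19588 (-0.30), and Pparg, known from adipocytes and from differentiated colonocytes, gave 11399 and 16140 (1.42-fold higher, 0.50). Of 15 PPAR target genes with a value (18 listed; median 0.09), 2 were more than 2-fold higher and 2 lower. Creb3l3, which encodes the lipid-responsive factor CREB-H, gave 274 and 16208 (5.88), and Slc25a20, the carnitine carrier of mitochondria, was at 1.54. Angptl4, a lipase inhibitor, was at -1.06, and at -0.55 after normexp.

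The bile acid receptor FXR (Nr1h4) had the highest log2 ratio of the family as reported, with 10572 in Villin-Cre and 18761 in EP4 cKO (1.77-fold higher, 0.83, software error 0.20). It stayed below 2-fold under each of the other 8 settings, with 0.98 as the highest. Only the 4 other scalings could move Nr1h4, which was read from 1 probe measured on both arrays. Of 6 genes of FXR response and bile acid handling with a value (9 listed; median 0.98), 3 were more than 2-fold higher in EP4 cKO, compared with 4.89% of all genes. These were Slc51b, a subunit of the basolateral bile acid exporter (1922 and 9665, 2.33), Slc10a2, the apical bile acid importer (269 and 1298, 2.27), and Fabp6, the ileal bile acid-binding protein (7779 and 25853, 1.73). Cyp27a1, a sterol hydroxylase of bile acid synthesis, was lower (468 and 197, -1.25, and -0.46 after normexp). Fgf15, Slc51a and Abcc2, also listed, were well above background on neither array. Nr0b2, itself a well-known FXR target, was lower on the same arrays by the bounds already given, so the genes known to respond to FXR that had a value lay on both sides.

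The oxysterol receptors LXR beta (Nr1h2) and LXR alpha (Nr1h3) differed little. Nr1h2 gave 21800 and 23734 (0.12, and -0.27 at its other probe) and Nr1h3 gave 6382 and 6237 (-0.03, and -0.15), all within 2 software errors of 0. Of 11 LXR target genes with a value (12 listed; median -0.36), none was more than 2-fold higher and 2 were lower. Abcg5, a subunit of the sterol exporter of the apical membrane, gave 10555 and 3029 (-1.80). Abca1, the cholesterol exporter that loads high-density lipoprotein, gave 414 and 74.7 (-2.47), and -0.97 after normexp. Scd2, a fatty acid desaturase, was at -0.36.

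Of the receptors for vitamin D and foreign compounds, Vdr gave 30388 and 38743 (1.27-fold higher, 0.35). The VDR target list (7 listed, 5 with a value; median 0.30) held 2 genes more than 2-fold higher, S100g (the calcium-binding protein calbindin-D9k, 14856 and 92675, 2.64) and Trpv6 (the apical calcium channel, 3500 and 15950, 2.19). Slc30a10, a manganese exporter, was lower by a bound (-3.03, and -1.24 after normexp). Cyp24a1 and Cyp27b1, also on that list, were well above background on neither array. PXR (Nr1i2) gave 11783 and 8489 (-0.47) and CAR (Nr1i3) gave 871 and 1234 (0.50), both xenobiotic sensors. In their list of 12 target genes, 9 had a value (median 0), with 1 past 2-fold in each direction. Cyp2c55, a cytochrome P450 of the colon, gave 42911 and 2412 (-4.15), while Cyp3a13 gave 8794 and 21047 (1.26) and Ces2c, a carboxylesterase, was at 0.16.

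HNF4 receptors maintain the absorptive program of the epithelium. Hnf4a gave 168393 and 198076 (0.23) at its brightest probe and 1359 and 860 (-0.66) at the other, and Hnf4g gave 543 and 367 (-0.56, software error 0.22). The estrogen-related receptors, orphan drivers of mitochondrial genes, were close to 0, with 68788 and 71461 for Esrra (0.06) and 1374 and 1142 for Esrrg (-0.27, and 0.11 at its other probe). Of 8 HNF4 target genes with a value (10 listed; median 0.46), Cideb (1.18) and Apob (1.02, and 0.96 after normexp), which act in lipoprotein assembly, were more than 2-fold higher at their brightest probe and within 2-fold at the other (0.52 for each gene), and Mttp, which loads lipid onto apolipoprotein B, gave 652 and 215 (-1.60, and -0.94 after normexp). Of 8 target genes of the estrogen-related receptors (9 listed; median -0.03), none was past 2-fold, with Atp5b at -0.15, Cs at 0.44 and Sdhb at -0.08.

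The receptors of the adrenal steroids hardly differed between the arrays. Nr3c1, the glucocorticoid receptor, gave 8642 and 8579 (-0.01, and -0.21 at its other probe), and Nr3c2, the mineralocorticoid receptor, which controls sodium uptake in the distal colon, gave 2189 and 2203 (0.01, and 0.02). Of 16 genes with a value that respond to corticoids or process them (18 listed; median 0.36), 12 lay within 2-fold. More than 2-fold higher were 3, where 4.89% of all genes were: Scnn1g, a subunit of the epithelial sodium channel (710 and 5242, 2.88), Per1, a clock gene (1.26), and Fkbp5, a co-chaperone of the receptor (9677 and 20525, 1.08, and 0.50 at its other probe). Mt2, a metallothionein, was the 1 gene past 2-fold lower (171297 and 57209, -1.58).

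Coregulators, through which all these receptors act, were 22 of 22 well above background on both arrays, with a median of -0.08. None was more than 2-fold lower, and 1 was higher, Ncoa7, a coactivator that also has interferon-induced transcripts (698 and 2718, 1.96). The other probes of Ncoa7 were at 0.00 and 1.55, so its probes did not all differ. Smarca4, the ATPase of a chromatin remodeller, was at -0.40 and Prmt1, an arginine methyltransferase, at -0.15. Over the 12 lists of coregulators, ligand handling, target genes and immediate early genes, 125 of 152 genes had a value. Of these, 17 (13.6%) were past 2-fold upward and 11 (8.8%) past 2-fold downward, and the median was 0. Among all genes these shares were 4.89% and 7.98%.

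**Figure D4:**
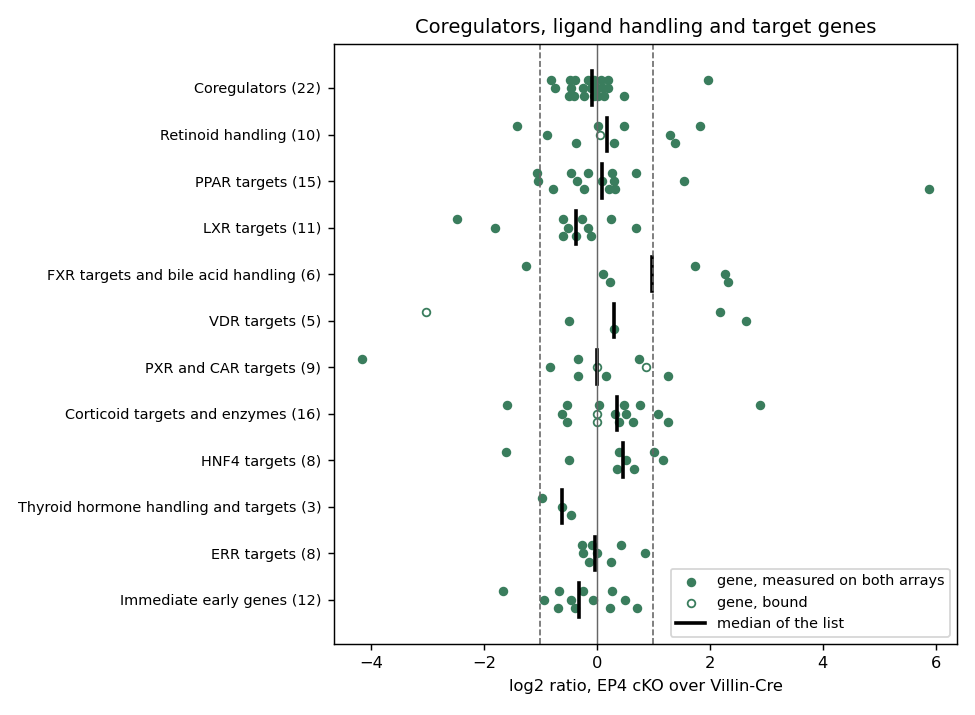
log2 ratio of EP4 cKO over Villin-Cre for each gene with a value in 12 lists of coregulators, ligand handling, target genes and immediate early genes, with the number of such genes in brackets, open circles for bounds, a black bar for the median of the list and dashed lines at 2-fold. The medians run from -0.62 for thyroid hormone handling (3 genes) to 0.98 for bile acid handling (6 genes), and Creb3l3 (5.88) is the point farthest to the right.

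The choice of scaling shifted the centre of all genes. Under the 75th percentile, normexp with quantile normalization, loess and a trimmed mean over all spots, the median of all genes moved from -0.10 to 0. Across these and the reported scaling, 31 of the 36 receptors kept 1 sign (21 lower and 10 higher), and Nr1h3, Nr2f1, Nr3c1, Pgr and Rara did not. Each of the 7 receptors past 2-fold was lower under every setting in which it had a value.

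**Figure D5:**
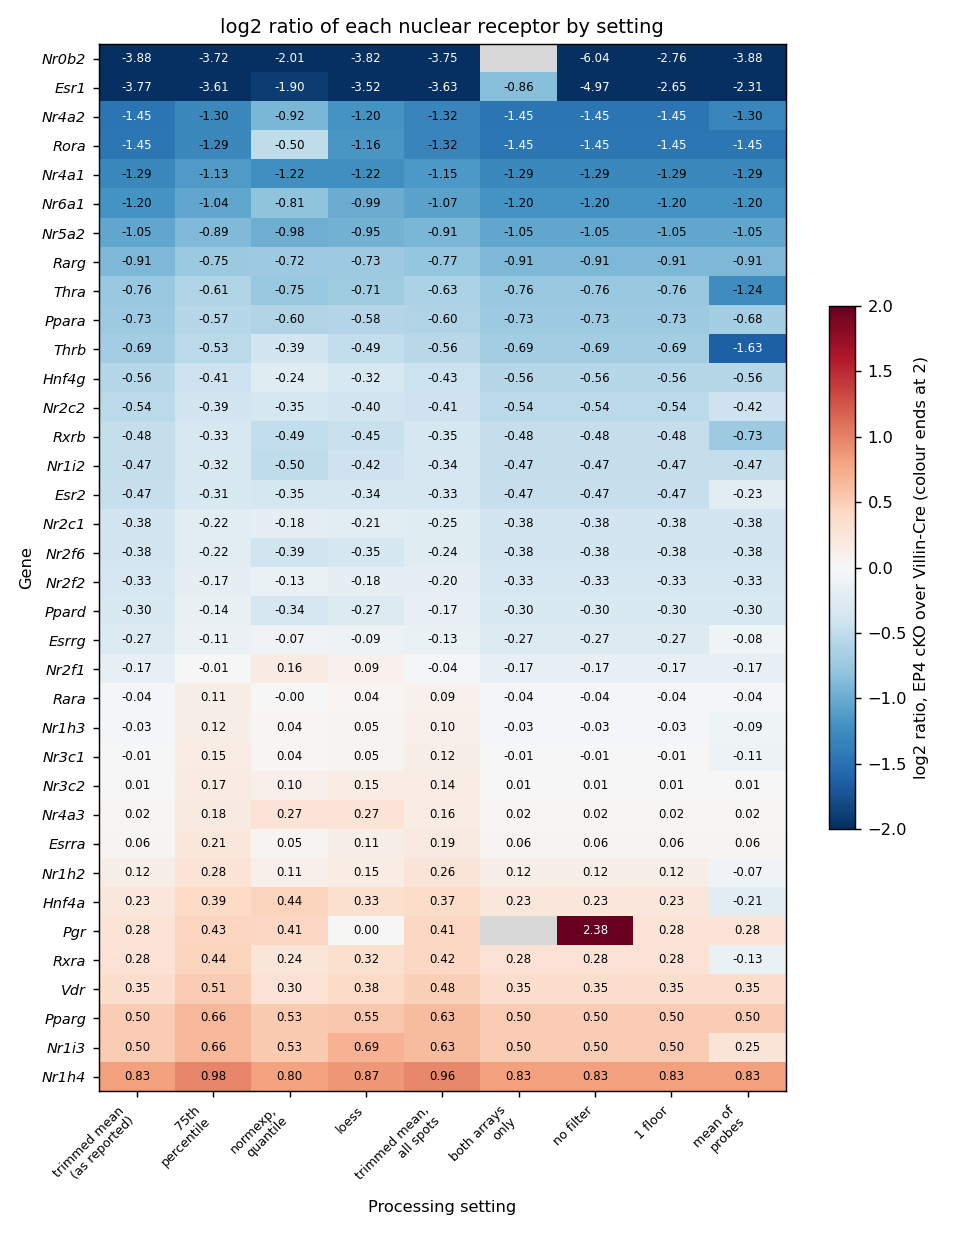
log2 ratio of each nuclear receptor with a value (rows) under the reported processing and 8 others (columns), with blue for lower and red for higher signal in EP4 cKO, colour ending at 2 on either side, and grey where no value could be given. Nr0b2 and Esr1 are the lowest in the first column (-3.88 and -3.77) and Nr1h4 the highest (0.83), and the normexp column holds smaller values for dim genes such as Rora (-0.50).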

How the data were processed

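Gene expression was measured in whole colon RNA of both genotypes (Villin-Cre and EP4 cKO) with Agilent 1-colour (Cy3) arrays, 1 per genotype. The methods state n = 3 for each genotype, and 1 array of each was analysed here. The authors deposited scanner intensities, namely processed signals that Feature Extraction (12.0.3.1 in the file headers, 11.5.1.1 in the submitters' processing notes) had background-subtracted and detrended. These intensities do not include the global scaling named in the methods (2% trimmed at each end, trimmed mean set to 2500), which was repeated here (trimmed means of 724 and 931 before scaling). Control spots and outlier spots (147 and 126, none of a nuclear receptor) were left out.

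By RefSeq accession, 32989 of 56593 probes (58.3%) matched a table of GRCm38.p6, giving 22909 genes. Coordinates are given only for the RefSeq promoter windows, since the array grid uses another assembly. The 40 members, the 12 comparison lists and the marker lists were chosen with earlier results of these data known. Named genes were all members, Ptger4, markers, and in each list the genes past 2-fold, filled up to 3 by mean signal. A few genes that this rule names are left out here.

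With 1 array per genotype no test, leave-one-out or p-value was possible. The alternatives were 75th percentile scaling, normexp (offset 50, on median signals) with quantile normalization, loess (span 0.3), a trimmed mean over all spots, other handling of dim probes and floors, the mean over the probes of each gene, and thresholds of 1.5-fold and 3-fold. The steps were tested on simulated data with known changes. Signal over background limits what could be seen, and the number of arrays limits the precision. Python 3.11.15 (numpy 2.4.6, pandas 2.3.3, statsmodels 0.14.6, matplotlib 3.10.9) and R 4.3.3 (limma 3.58.1) were used.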

Additional observations from a re-analysis of the deposited data

How the results depend on the processing

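The 7 nuclear receptors more than 2-fold lower in EP4 cKO became 3 under normexp with quantile normalization, 11 at a 1.5-fold threshold and 2 at 3-fold. Under the other settings the count lay between 5 and 9. None was more than 2-fold higher as reported. With no filter on dim probes 1 was (Pgr, 2.38), and at 1.5-fold 1 was (Nr1h4). The median log2 ratio of -0.35 became -0.20 with 75th percentile scaling, -0.21 with normexp, -0.24 with loess, -0.22 with the trimmed mean over all spots and -0.31 with the mean of all probes, and the first 4 of these settings moved the median of all genes to 0. With no filter on dim probes, 31.7% of all genes and 9 of 39 receptors were more than 2-fold lower, and under normexp 2.70% of all genes were. Genes past 2-fold in the comparison lists numbered 28 as reported and 22 to 28 otherwise. No receptor past 2-fold as reported changed sign under any setting that gave it a value. The cause of these differences between settings was not tested. No paired analysis was possible because each genotype had 1 array, and for the same reason no array could be left out. Dim probes below the lowest signal well above background give no fold.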
